A study of Mus musculus with 30 samples.

Results

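The Kruppel-like factor (KLF) family was examined in 2 mouse cell lines during partial inhibition of translation. The members were 10 genes, Klf2, Klf3, Klf4, Klf5, Klf6, Klf7, Klf9, Klf10, Klf11 and Klf13, taken by symbol from the 57186 genes of the count table, in which 17 genes carry a KLF symbol. The lines were NIH/3T3, a fibroblast line grown in DMEM with serum, and CGR8, an embryonic stem cell line grown in N2B27 medium with 2i and LIF, inhibitors and a cytokine that hold such cells in the naive state. Both lines carry the same genotype, a ROSA26 SLT knock-in, and each is a single cell line. Each line had its own medium, so a difference between the lines cannot be told apart from a difference between the media. Cycloheximide (CHX), which blocks translation elongation, was used at 0.1 µg/mL, and RNA was sequenced after 0, 1, 2, 5 and 48 h with replicates A, B and C at each time, which gives 10 groups of 3 libraries. The labels list the same dose for the 0 h libraries, which serve as the untreated reference. No untreated library was taken at the later times. A change against 0 h therefore cannot be told apart from one of handling or time in culture. The labels number the replicates by letter and do not say whether they are separate cultures, so the p-values measure the spread between these libraries, which may be technical.

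KLF proteins are transcription factors that bind GC-rich and CACCC sequences through zinc fingers at their C-terminus. Klf2, Klf4 and Klf5 belong to the transcription factor network that maintains naive mouse embryonic stem cells, where LIF acting through Stat3 raises Klf4. Klf3 represses transcription with the corepressor CtBP, and Klf9, Klf10, Klf11 and Klf13 recruit the corepressor Sin3a. Several family members, among them Klf2, Klf4, Klf6 and Klf10, are known as early response genes, whose transcription rises within minutes to hours of a stimulus and whose mRNAs are short-lived, and blocking translation is a textbook way to prolong the expression of such genes.

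The promoters of 5 members whose mRNAs carry the main patterns are shown, as the 250 bases before the annotated start in RefSeq on GRCm38.p6. Klf6 was the member with a window whose mRNA rose furthest in NIH/3T3, and Klf4 moved in opposite directions in the lines at 2 h. Klf3 and Klf13 fell furthest in CGR8. Klf2 had the largest fitted difference between the lines at 0 h, although that of Klf7 was close to it in size. Klf6 lies at chr13:5861239-5861488 on the plus strand, Klf2 at chr8:72318812-72319061 on the plus strand and Klf4 at chr4:55532476-55532725 on the minus strand. Klf3 lies at chr5:64803271-64803520 on the plus strand and Klf13 at chr7:63938916-63939165 on the minus strand. Capitals mark the GC box GGGCGG and the CCAAT box CCAAT on either strand, so that CCGCCC and ATTGG are capitals as well, and boxes that overlap run together.
Klf6: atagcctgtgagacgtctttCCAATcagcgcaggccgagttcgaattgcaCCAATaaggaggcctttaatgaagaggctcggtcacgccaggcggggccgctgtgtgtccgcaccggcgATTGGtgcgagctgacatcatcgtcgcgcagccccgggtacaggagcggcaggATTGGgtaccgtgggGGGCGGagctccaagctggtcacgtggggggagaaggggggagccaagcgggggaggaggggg
Klf2: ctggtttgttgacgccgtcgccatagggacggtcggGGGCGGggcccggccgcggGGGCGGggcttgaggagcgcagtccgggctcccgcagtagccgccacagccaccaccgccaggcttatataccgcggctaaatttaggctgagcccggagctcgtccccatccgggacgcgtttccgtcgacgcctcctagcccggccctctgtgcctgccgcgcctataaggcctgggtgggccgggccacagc
Klf4: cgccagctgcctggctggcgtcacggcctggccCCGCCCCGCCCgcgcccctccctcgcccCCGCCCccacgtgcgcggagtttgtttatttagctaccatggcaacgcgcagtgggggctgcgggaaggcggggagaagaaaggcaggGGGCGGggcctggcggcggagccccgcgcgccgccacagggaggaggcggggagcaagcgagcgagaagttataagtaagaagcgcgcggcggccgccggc
Klf3: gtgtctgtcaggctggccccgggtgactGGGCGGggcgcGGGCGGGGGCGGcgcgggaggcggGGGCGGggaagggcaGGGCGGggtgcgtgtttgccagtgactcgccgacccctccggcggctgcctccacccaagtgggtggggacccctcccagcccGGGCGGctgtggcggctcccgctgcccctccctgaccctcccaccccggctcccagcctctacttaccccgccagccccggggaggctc
Klf13: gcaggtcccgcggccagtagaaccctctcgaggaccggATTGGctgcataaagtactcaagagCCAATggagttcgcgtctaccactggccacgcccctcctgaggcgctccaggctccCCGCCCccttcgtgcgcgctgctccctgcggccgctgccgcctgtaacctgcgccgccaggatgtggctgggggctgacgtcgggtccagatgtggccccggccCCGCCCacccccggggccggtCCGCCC
A window was found for 8 of the 10 members. Klf5 and Klf10 are named only. GC content of the 8 windows ran from 59.2% in Klf7 to 78.4% in Klf3, against a median of 52% over 27025 mouse promoters. GC boxes numbered 6 in Klf3, 4 each in Klf4 and Klf11 and 3 in Klf13. Klf2 held 2, Klf6 and Klf7 held 1 each and Klf9 held 0. Of all promoters, 32.9% held at least 1 and 4.11% held 4 or more. The sequence CACCC, on either strand, numbered 5 in Klf3, 3 in Klf7 and 1 each in Klf2, Klf9 and Klf13. Klf4, Klf6 and Klf11 held 0, and 51.3% of all promoters held at least 1. The Klf6 window held 4 CCAAT boxes, at 230, 200, 131 and 78 bases before the start as written at their first base. Klf9 held 3 of them, Klf11 and Klf13 held 2 each, and the other 4 windows held 0, while 34.5% of all promoters held at least 1 and 0.918% held 4 or more. None of the 8 windows held the full cyclic AMP response element TGACGTCA, the TATA box TATAAA or the CArG box, which 1.62%, 13.0% and 1.40% of all promoters held. These matches describe the letters of the windows and do not show that a factor binds there.

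All 30 libraries held between 18.2 and 30.5 M counts (mega-counts), and all 10 members passed the filter on low counts in both lines. Levels are CPM (counts scaled to a common total per library), scaled by the TMM factors of the fit, so they are relative to the other mRNAs of the same library and cannot tell fewer cells of a type from less RNA per cell. The line labels were checked against markers. The fibroblast markers Col1a1, Col1a2, Col3a1 and Lox summed to 4059 to 10239 CPM in NIH/3T3 libraries and to at most 0.976 CPM in CGR8, and the stem cell markers Pou5f1, Nanog, Zfp42 and Esrrb summed to 3027 to 4209 CPM in CGR8 and to at most 0.419 CPM in NIH/3T3. In CGR8 the primitive endoderm markers Gata4, Gata6, Sox17 and Sox7 summed to 1.01 to 4.2 CPM. The primed epiblast markers Fgf5, Otx2, Pou3f1 and Dnmt3b summed to 243 to 265 CPM at 0 h, 183 to 221 CPM at 5 h and 469 to 632 CPM at 48 h in CGR8. Most of these sums came from a single gene, as the highest gene reached 256, 204 and 607 CPM at these times. The part of these markers in the KLF results was not tested.

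At 0 h the order of the members by level was not the same in the 2 lines. A transcript level per length, CPM per kilobase of exon, was used to compare genes with each other. Klf4 led in NIH/3T3 at 85.2 ± 7.61 CPM per kilobase (SD, n = 3), followed by Klf6 at 50.1 ± 2.19 and Klf2 at 24.2 ± 2.62, with the libraries of these neighbours apart. Klf10, Klf7 and Klf9 followed at 12.5, 12.3 and 12.1 CPM per kilobase, with overlapping ranges, then Klf3 at 9.23, Klf13 at 6.22 and Klf5 at 5.93, the last pair also overlapping, and Klf11 was lowest at 2.95. In CGR8, Klf2 led at 205 ± 37.4 CPM per kilobase (SD, n = 3), followed by Klf4 at 79.8 ± 0.988, Klf9 at 34.3 ± 3.26, Klf5 at 25.8 ± 1.12 and Klf6 at 15.4 ± 0.543. Klf10 at 12.2, Klf13 at 11.5 and Klf3 at 10.6 CPM per kilobase came next, each overlapping its neighbour, and Klf11 at 5.39 and Klf7 at 1.62 were the lowest.

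**Figure D1:**
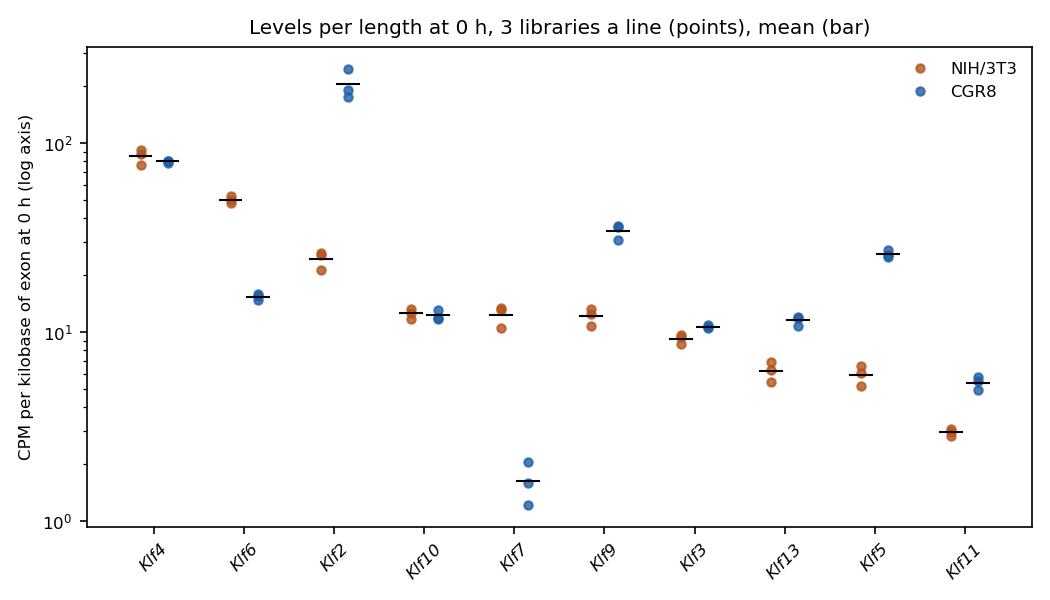
Level per kilobase of exon at 0 h of each member, on a log axis, in the 3 libraries of NIH/3T3 and of CGR8 (points) with the mean of each line (bar). Klf4 and Klf10 sat together in the lines, while Klf2 was at 24.2 in NIH/3T3 and 205 in CGR8, and Klf7 at 12.3 and 1.62.

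Between the lines at 0 h, 7 of the 10 members differed, beside 79.1% of the 17549 genes tested. The members thus did not differ more often than genes at large. The naive network members Klf2 and Klf5 were higher in CGR8, Klf2 by a log2 of 3.08 (SE 0.16, edgeR adjusted p = 1.88e-16) and Klf5 by 2.12 (SE 0.11, edgeR adjusted p = 8.15e-17). Klf9, which glucocorticoids induce in many tissues, was higher by 1.5 (edgeR adjusted p = 1.09e-09), Klf13 by 0.89 (edgeR adjusted p = 3.21e-06) and Klf11 by 0.87 (edgeR adjusted p = 4.93e-07). The closely related Klf6 and Klf7 were lower in CGR8, with log2 differences of -1.70 (edgeR adjusted p = 8.43e-15) and -2.93 (edgeR adjusted p = 1.84e-11). Klf4, although a network member, did not pass the test, at -0.09 (95% interval -0.32 to 0.13, edgeR adjusted p = 0.441), nor did Klf10 at -0.03 (edgeR adjusted p = 0.799) or Klf3 at 0.21 (edgeR adjusted p = 0.123, and 0.0114 to 0.312 over the alternatives).

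In NIH/3T3 the members called at 2 h were mostly higher, and those called at 5 and 48 h went both ways. Klf6 and Klf10 rose at 1 h, 6 members rose at 2 h, 3 were still above 0 h at 5 h while 4 had fallen below it, and 5 were above and 3 below at 48 h. The shares of all 13941 genes called higher at 1, 2, 5 and 48 h were 0.653%, 16.1%, 24% and 26.7%, and the shares called lower were 0.0789%, 18.9%, 27.1% and 25.6%. The median log2 fold change of the 10 members was 0.22, 0.48, -0.11 and 0.32 at these times, and that of all genes tested 0.02, -0.01, -0.01 and -0.01. A gene was called at an edgeR adjusted p under 0.05, and the 4 comparisons share their 0 h libraries. Without 48 h replicate A the count at 48 h was 5 members in place of 8.

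In CGR8 most of the family was lower at 5 h. Klf10 alone was called at 1 h, and it was higher. At 2 h Klf10 was higher and 5 members were lower, and at 5 h Klf10 was higher and 8 were lower, all but Klf2. At 48 h Klf4 and Klf10 were higher and Klf11 was lower. The shares of all 15933 genes called higher were 0.144%, 8.97%, 24.9% and 12.2% at 1, 2, 5 and 48 h, and those called lower were 0.126%, 11%, 27.2% and 15.6%. Members had a median log2 fold change of 0.01, -0.29, -0.66 and 0.15, beside -0.00, 0.01, -0.01 and -0.00 over all genes tested.

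**Figure D2:**
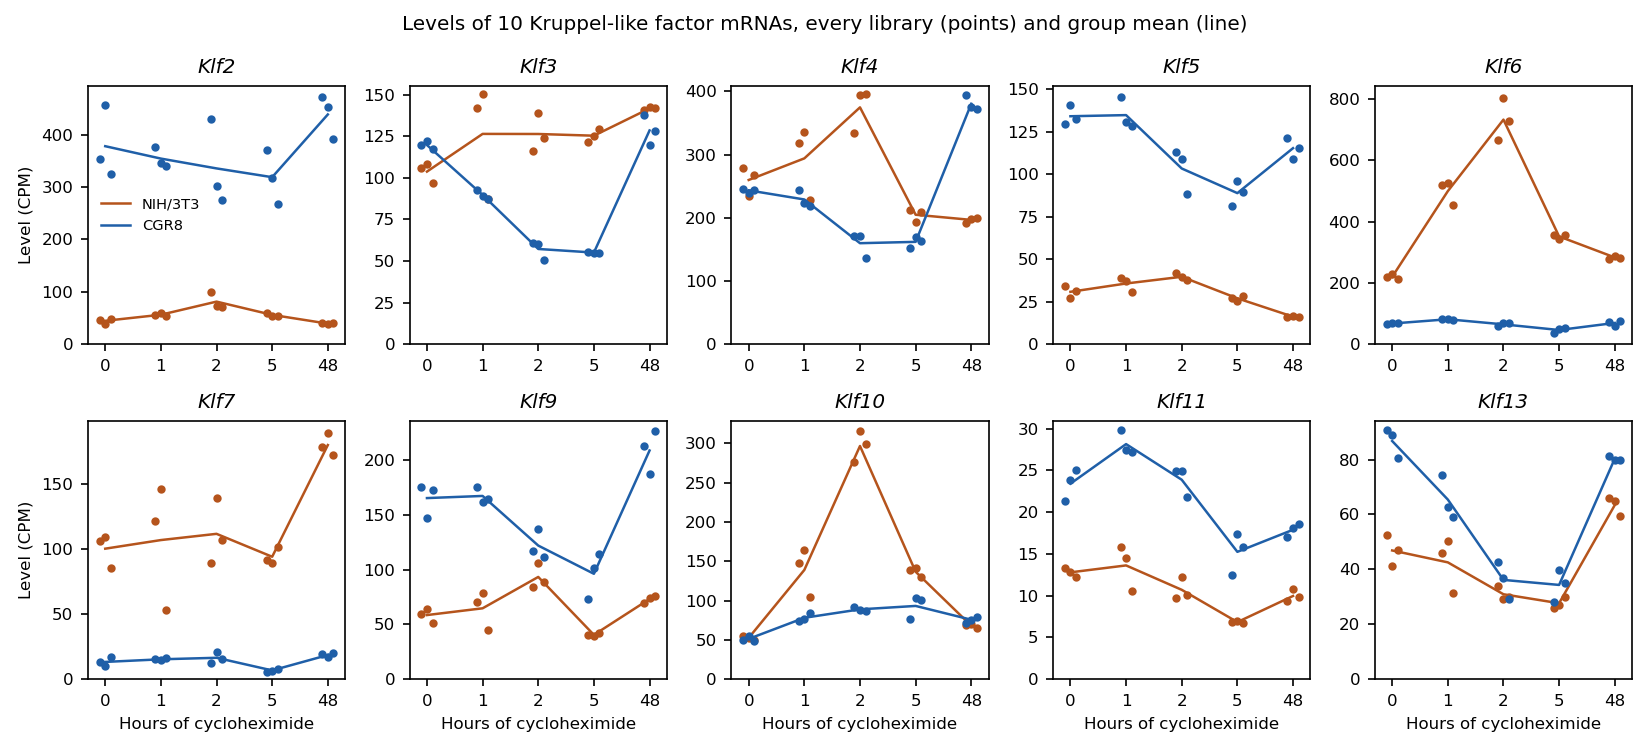
Level in CPM of each member in every library (points) against hours of cycloheximide, with lines through the group means, for NIH/3T3 and CGR8. Time steps are evenly spaced on the axis and not to scale. Klf6 and Klf10 peaked at 2 h in NIH/3T3, and Klf3 and Klf13 were at their lowest mean at 5 h in CGR8.

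Klf10, a repressor induced by TGF-beta and several growth factors, had the largest rise of the members. At 0 h its level was 55.4, 52.8 and 49.1 CPM in NIH/3T3 replicates A, B and C. It was 147, 165 and 105 CPM at 1 h, 276, 315 and 299 CPM at 2 h, 138, 142 and 130.1 CPM at 5 h and 68.8, 70.0 and 64.9 CPM at 48 h. Every treated library lay above every 0 h library, and the 2 h libraries lay above all others. The log2 fold change was 1.43 (SE 0.12, edgeR adjusted p = 2.64e-06) at 1 h, 2.53 (SE 0.13, edgeR adjusted p = 9.67e-10) at 2 h and 1.42 (SE 0.12, edgeR adjusted p = 3.14e-07) at 5 h. At 48 h it was 0.34 (SE 0.12, edgeR adjusted p = 0.0256), a call lost without 0 h replicate B or C or 48 h replicate A or B (edgeR adjusted p between 0.000377 and 0.0915 over the alternatives).

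CGR8 started from nearly the same Klf10 level and moved less. Its libraries held 49.5, 54.9 and 49.1 CPM at 0 h, 73.7, 76.3 and 84.0 CPM at 1 h, 91.8, 88.3 and 86.2 CPM at 2 h, 76.4, 103 and 100.2 CPM at 5 h and 72.0, 75.3 and 79.4 CPM at 48 h. Again no treated library overlapped the 0 h libraries, but the groups at 1, 5 and 48 h overlapped each other, and the 2 h group overlapped that at 5 h. The log2 fold changes were 0.61 (SE 0.11, edgeR adjusted p = 0.0291) at 1 h, 0.77 (SE 0.11, edgeR adjusted p = 0.000404) at 2 h, 0.81 (SE 0.11, edgeR adjusted p = 3.24e-05) at 5 h and 0.55 (SE 0.11, edgeR adjusted p = 0.00177) at 48 h. The 1 h call was lost without any one of the 6 libraries compared (edgeR adjusted p between 0.000275 and 0.243 over the alternatives).

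Klf6, a broadly expressed factor that serum and injury induce, also peaked at 2 h in NIH/3T3. Its libraries held 218, 230.3 and 211 CPM at 0 h, 519, 526 and 454 CPM at 1 h, 665, 805 and 729.7 CPM at 2 h, 357, 343 and 356 CPM at 5 h and 278, 289.5 and 283 CPM at 48 h. No group overlapped another. The log2 fold changes were 1.21 (SE 0.084, edgeR adjusted p = 4.01e-07) at 1 h, 1.77 (SE 0.086, edgeR adjusted p = 7.81e-10) at 2 h, 0.71 (SE 0.084, edgeR adjusted p = 5.42e-06) at 5 h and 0.34 (SE 0.083, edgeR adjusted p = 0.00296) at 48 h. In CGR8, Klf6 stood at 64.9, 68.4 and 69.5 CPM at 0 h and 81.1, 83.8 and 79.8 CPM at 1 h, which did not pass the test at a log2 fold change of 0.27 (edgeR adjusted p = 0.6). It fell to 37.8, 49.8 and 51.9 CPM at 5 h, below every 0 h library, with a log2 fold change of -0.59 (SE 0.12, edgeR adjusted p = 0.000847), and was back at 73.1, 60.9 and 74.6 CPM at 48 h.

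Klf7, the closest relative of Klf6 and a factor of neuronal and adipose development, did not share that early course. Its NIH/3T3 libraries held 106, 109 and 85.0 CPM at 0 h, 122, 145 and 52.9 CPM at 1 h, 88.9, 139 and 106 CPM at 2 h and 91.3, 88.8 and 101 CPM at 5 h, all overlapping, and 178, 189 and 172 CPM at 48 h, above all others. The 48 h log2 fold change was 0.81 (SE 0.24, edgeR adjusted p = 0.00998), and those at 1, 2 and 5 h were 0.12, 0.19 and -0.06 without passing the test. In CGR8 it was the least abundant member, at 13.0, 9.90 and 16.6 CPM at 0 h and 5.50, 6.49 and 7.96 CPM at 5 h, and fell at 5 h by 1.03 on the log2 scale (SE 0.21, edgeR adjusted p = 0.000748). At 48 h it held 18.9, 16.8 and 19.6 CPM, a log2 fold change of 0.48 that did not pass (edgeR adjusted p = 0.0895) and did without 0 h replicate C, at 0.68 (edgeR adjusted p = 0.0302, and 0.0177 to 0.299 over the alternatives). Klf7 exons overlap those of 2 genes on the opposite strand, and Klf3 exons those of 1, so counts of both are uncertain if strand was ignored in counting.

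**Figure D3:**
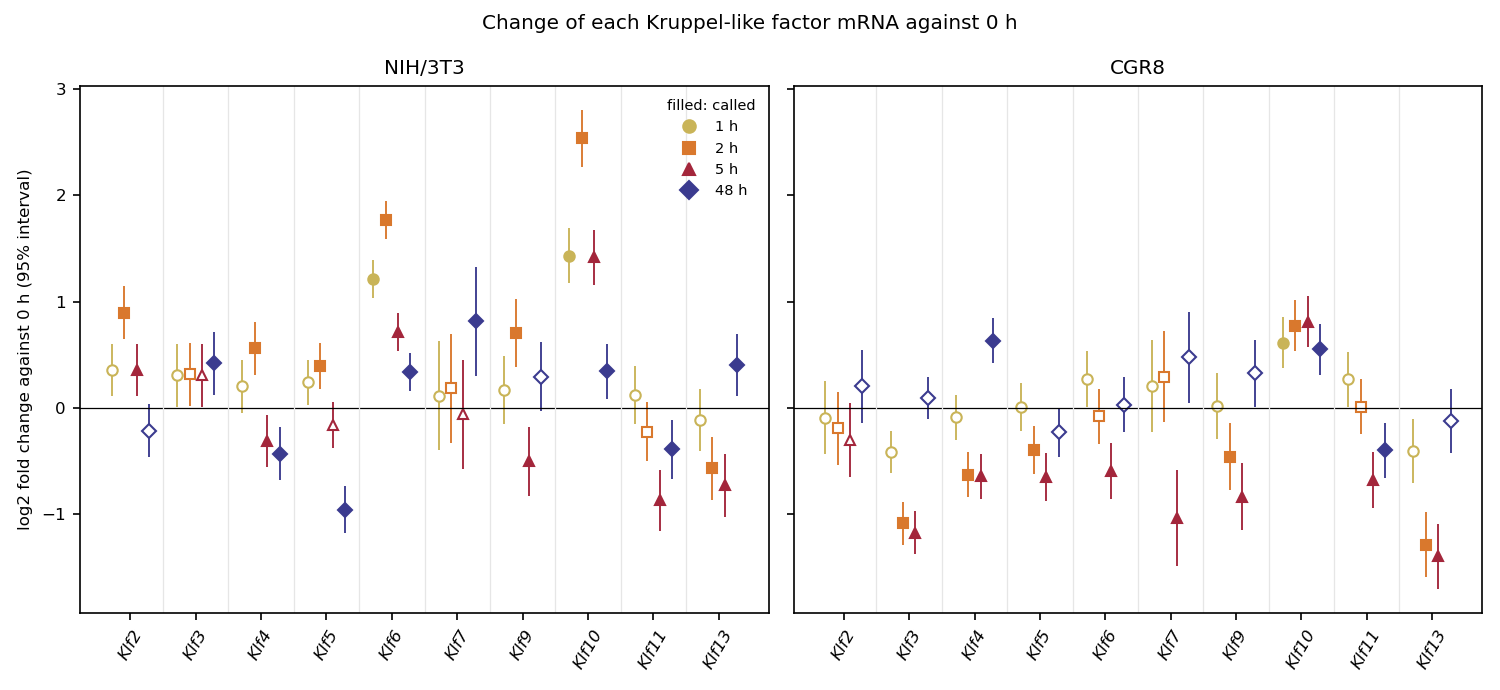
Fitted log2 fold change against 0 h (y axis) of each member at 1, 2, 5 and 48 h in NIH/3T3 (left) and CGR8 (right), with 95% intervals and filled symbols for members called by edgeR. At 5 h in CGR8, 8 members lay below 0 and were called, and Klf10 was called above 0.

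Of the naive network members, Klf4, which with Klf2 and Klf5 sustains stem cell self-renewal and in fibroblasts restrains proliferation, moved in opposite directions in the lines at 2 h and at 48 h. In NIH/3T3 its libraries held 278, 234 and 267 CPM at 0 h and 335, 394 and 396 CPM at 2 h, without overlap, a log2 fold change of 0.56 (SE 0.12, edgeR adjusted p = 0.00212). At 5 h they held 212, 194 and 209 CPM and at 48 h 191, 199 and 200.5 CPM, both below every 0 h library. The log2 fold changes were -0.31 (SE 0.12, edgeR adjusted p = 0.036) at 5 h and -0.43 (SE 0.12, edgeR adjusted p = 0.00559) at 48 h, the first lost with library size alone, with a mean of at least 5 CPM, and without 0 h replicate A or C or any one 5 h library (edgeR adjusted p between 0.00159 and 0.13 over the alternatives). In CGR8 the level was 246, 240.0 and 245 CPM at 0 h, 172, 171 and 137 CPM at 2 h, 152, 170.2 and 163 CPM at 5 h and 394, 375 and 373 CPM at 48 h. It was lower at 2 and 5 h and higher at 48 h with no overlap with 0 h, at log2 fold changes of -0.63 (SE 0.10, edgeR adjusted p = 0.000794), -0.64 (SE 0.10, edgeR adjusted p = 8.37e-05) and 0.63 (SE 0.10, edgeR adjusted p = 0.000221).

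Klf2, a factor of vascular quiescence and the most abundant member per length in CGR8, was not called against 0 h at any time there. Its CGR8 libraries held 353, 456 and 325 CPM at 0 h, 430.4, 302 and 275 CPM at 2 h, 371, 318 and 268 CPM at 5 h and 471, 452 and 392 CPM at 48 h, and each treated group overlapped the 0 h group. The 5 h log2 fold change was -0.30 (95% interval -0.65 to 0.05, edgeR adjusted p = 0.136, and 0.0291 to 0.523 over the alternatives). In NIH/3T3 it held 46.9, 39.2 and 48.1 CPM at 0 h, 99.3, 72.8 and 71.9 CPM at 2 h and 58.9, 54.7 and 54.6 CPM at 5 h, with both treated groups above every 0 h library. The log2 fold changes were 0.90 (SE 0.12, edgeR adjusted p = 4.97e-05) at 2 h and 0.36 (SE 0.12, edgeR adjusted p = 0.0162) at 5 h, the later one lost without 0 h replicate B or 5 h replicate A (edgeR adjusted p between 0.00105 and 0.0842 over the alternatives).

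Klf5, which promotes proliferation in many epithelia, fell late in NIH/3T3. Its level there was 34.2, 27.0 and 31.4 CPM at 0 h, 42.0, 39.5 and 37.6 CPM at 2 h and 15.9, 16.6 and 16.2 CPM at 48 h. The 2 h libraries lay above and the 48 h libraries below all 0 h libraries, at log2 fold changes of 0.40 (SE 0.10, edgeR adjusted p = 0.0074) and -0.96 (SE 0.10, edgeR adjusted p = 1.83e-06). In CGR8 it held 129.5, 141 and 132 CPM at 0 h, 113, 109 and 88.5 CPM at 2 h and 81.1, 96.3 and 89.3 CPM at 5 h, without overlap with 0 h. Its log2 fold changes were -0.39 (SE 0.11, edgeR adjusted p = 0.0193) and -0.65 (SE 0.11, edgeR adjusted p = 0.000146), and the 2 h call was lost with the compared groups only and without 0 h or 2 h replicate C (edgeR adjusted p between 0.00583 and 0.101 over the alternatives).

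Klf3, the CtBP-binding repressor, and Klf13, a Sin3a-binding member, had the deepest falls against 0 h of the 10 members, both in CGR8. Klf3 held 119.6, 122 and 118 CPM at 0 h, 92.5, 89.2 and 87.3 CPM at 1 h, 61.0, 60 and 50.7 CPM at 2 h, 55.4, 55.0 and 54.7 CPM at 5 h and 138, 119.7 and 128 CPM at 48 h. The groups at 1, 2 and 5 h lay wholly below the 0 h group, and the 48 h group overlapped it. The log2 fold changes were -1.08 (SE 0.10, edgeR adjusted p = 6.74e-06) at 2 h and -1.17 (SE 0.10, edgeR adjusted p = 3.99e-07) at 5 h, and that at 1 h was -0.41 (edgeR adjusted p = 0.0972, and 0.00171 to 0.493 over the alternatives). In NIH/3T3, Klf3 was at 106, 108 and 97.2 CPM at 0 h, 121, 125 and 129 CPM at 5 h and 141, 143 and 142 CPM at 48 h. Only the 48 h change passed, at 0.42 (SE 0.14, edgeR adjusted p = 0.0188), and it was lost without 0 h replicate C (edgeR adjusted p between 3.02e-05 and 0.0678 over the alternatives). Log2 fold changes of 0.32 at 2 h and 0.31 at 5 h did not pass (edgeR adjusted p = 0.0898 and 0.0786). Both groups still lay above every 0 h library. Each change passed with no filter and with the compared groups only, and that at 5 h also by DESeq2 (DESeq2 adjusted p = 0.0481).

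Klf13, which in lymphocytes activates a chemokine gene, was the only member called lower at 2 h in both lines. Its level in CGR8 was 90.8, 88.8 and 80.6 CPM at 0 h, 74.3, 62.7 and 59.2 CPM at 1 h, 42.6, 36.7 and 29.1 CPM at 2 h, 28.2, 39.6 and 35.0 CPM at 5 h and 81.4, 79.7 and 79.8 CPM at 48 h. In NIH/3T3 it was 52.4, 41.1 and 47.1 CPM at 0 h, 33.8, 29.2 and 29.8 CPM at 2 h, 25.9, 27.0 and 30.1 CPM at 5 h and 65.9, 64.8 and 59.4 CPM at 48 h. In both lines the 2 h and 5 h groups lay wholly below the 0 h group. On the log2 scale Klf13 fell in CGR8, at -1.28 (SE 0.14, edgeR adjusted p = 5.28e-05) at 2 h and -1.39 (SE 0.14, edgeR adjusted p = 2.84e-06) at 5 h. The NIH/3T3 changes were -0.57 (SE 0.14, edgeR adjusted p = 0.00616) and -0.73 (SE 0.14, edgeR adjusted p = 0.000442), followed by 0.41 (SE 0.14, edgeR adjusted p = 0.02) at 48 h, a call lost without 0 h replicate B or 48 h replicate A or B (edgeR adjusted p between 0.00062 and 0.0948 over the alternatives).

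Of the other Sin3a-binding members, Klf9 and Klf11 were lower at 5 h in both lines, while Klf10 was higher in both, as given above. Klf9 held 59.9, 63.9 and 51.6 CPM at 0 h, 84.3, 106 and 89.0 CPM at 2 h and 40.1, 39.1 and 41.8 CPM at 5 h in NIH/3T3, first above and then below every 0 h library. On the log2 scale Klf9 changed by 0.71 (SE 0.15, edgeR adjusted p = 0.00268) at 2 h and -0.50 (SE 0.15, edgeR adjusted p = 0.0123) at 5 h, the second lost without 0 h replicate B (edgeR adjusted p between 0.00011 and 0.054 over the alternatives). In CGR8, Klf9 held 176, 147 and 173 CPM at 0 h, 117, 137 and 111 CPM at 2 h and 72.7, 101 and 114 CPM at 5 h, with no overlap with 0 h. There it changed by -0.46 (SE 0.15, edgeR adjusted p = 0.0398) at 2 h and -0.83 (SE 0.15, edgeR adjusted p = 0.000258) at 5 h, and the 2 h call was lost with library size alone, with the compared groups only, and without 0 h replicate A or C or 2 h replicate A or C (edgeR adjusted p between 0.00575 and 0.177 over the alternatives).

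Klf11, a TGF-beta-responsive factor that also acts in pancreatic beta cells, was the least abundant member per length in NIH/3T3. Its level was 13.3, 12.9 and 12.2 CPM at 0 h, 6.81, 6.96 and 6.71 CPM at 5 h and 9.30, 10.8 and 9.82 CPM at 48 h there, and 21.3, 23.8 and 25.1 CPM, 12.5, 17.4 and 15.8 CPM and 17.0, 18.1 and 18.6 CPM in CGR8. In both lines the 5 h and 48 h groups lay wholly below the 0 h group. The 5 h log2 fold changes were -0.87 (SE 0.14, edgeR adjusted p = 6.93e-05) in NIH/3T3 and -0.67 (SE 0.12, edgeR adjusted p = 0.000339) in CGR8. At 48 h they were -0.39 (SE 0.13, edgeR adjusted p = 0.0208) and -0.40 (SE 0.12, edgeR adjusted p = 0.0233). The 48 h call was lost in NIH/3T3 with library size alone and without 0 h replicate A or 48 h replicate A or C (edgeR adjusted p between 0.00211 and 0.0871 over the alternatives) and in CGR8 with no filter and without 0 h replicate B or C or 48 h replicate A or B (between 0.0167 and 0.0919).

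At 1 h in NIH/3T3, replicate C had the lowest level of the 3 libraries for 10 of 10 members. Of the 9725 genes whose mean there reached 5 CPM, this library was the lowest for 52.8% and the highest for 41.2%. Klf7 was at 52.9 CPM there against 122 and 145 CPM, and Klf3 at 87.0 CPM against 142 and 150 CPM. Without that library, 4 members in place of 2 were called at 1 h, with Klf3 at a log2 fold change of 0.50 (edgeR adjusted p = 0.00139) and Klf4 at 0.34 (edgeR adjusted p = 0.0359) added to Klf6 and Klf10. Over all alternatives the adjusted p of Klf3 and Klf4 at 1 h ran from these values to 0.885. In CGR8, replicate C at 2 h and replicate A at 5 h were each the lowest for 8 of 10 members, and for 31% and 38.7% of genes. Without the first, 4 members in place of 6 were called at 2 h, and without the second the count at 5 h was 9 either way.

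Neighbouring times were compared with each other as well. From 1 to 2 h in NIH/3T3, Klf2, Klf4, Klf6, Klf9 and Klf10 rose and Klf13 fell, 6 of 10 members beside 17.4% of all genes. From 2 to 5 h, 7 members fell and 0 rose, beside 23.1% of all genes called either way, and the falls were largest for Klf9 (-1.21, edgeR adjusted p = 3.4e-05), Klf10 (-1.12, edgeR adjusted p = 5.21e-06) and Klf6 (-1.06, edgeR adjusted p = 1.63e-07). Each of these 7 falls passed the test under every alternative. From 5 to 48 h, 4 rose (Klf7, Klf9, Klf11 and Klf13) and 4 fell (Klf2, Klf5, Klf6 and Klf10), beside 65.6% of all genes. In the step from 1 to 2 h, the calls of Klf4, Klf9 and Klf13 were each lost without 1 h replicate A, 2 h replicate B or 2 h replicate C, which left 3. Klf13 was also lost without 1 h replicate B. The edgeR adjusted p of these calls then reached 0.138, 0.0987 and 0.201. With the compared groups only, 1 call was left, and those of Klf2 (edgeR adjusted p = 0.178) and Klf6 (edgeR adjusted p = 0.128) were lost too. Without 1 h replicate C the count was 7, with Klf11 added.

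In CGR8, Klf3, Klf4, Klf5 and Klf13 fell from 1 to 2 h, 4 of 10 members beside 6.59% of all genes. From 2 to 5 h, Klf6, Klf7 and Klf11 fell, 3 of 10 beside 19.1%, with Klf5 added without 2 h replicate C and Klf9 without 5 h replicate C. From 5 to 48 h, 8 members rose and 0 fell, beside 57.5% of all genes called either way, with a median log2 change of the 10 members of 0.89 against -0.01 for all genes. The largest of these rises was that of Klf7, by 1.51 (SE 0.21, edgeR adjusted p = 2.14e-05), and Klf4, Klf13 and Klf3 followed at 1.27, 1.27 and 1.26. Klf10 and Klf11 did not pass, at -0.26 and 0.27. However, Klf10 was called lower without 5 h replicate A and with a mean of at least 5 CPM (edgeR adjusted p = 0.0185). It was also called lower with RLE factors (edgeR adjusted p = 0.0476) and by DESeq2 (DESeq2 adjusted p = 0.0401). Klf11 was called higher without 5 h replicate B and with library size alone (edgeR adjusted p = 0.0287). The 1 to 2 h calls were lost for Klf4 without 1 h replicate A or B or 2 h replicate C, for Klf5 without any one 1 h library or 2 h replicate C, and for Klf13 without 1 h replicate A or 2 h replicate C (edgeR adjusted p up to 0.0999, 0.215 and 0.0788). The count of 4 was then 1 without 1 h replicate A or 2 h replicate C and 2 without 1 h replicate B, and Klf9 was added without 2 h replicate B. With the compared groups only, all 4 calls were lost, Klf3 at an edgeR adjusted p of 0.0572, Klf4 at 0.0685, Klf5 at 0.0798 and Klf13 at 0.059. The 2 to 5 h calls of Klf6 (edgeR adjusted p = 0.11) and Klf11 (edgeR adjusted p = 0.0535) were lost there too. The 5 to 48 h rise of Klf2 was lost without 5 h replicate C or 48 h replicate A (edgeR adjusted p up to 0.0604).

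Whether the lines responded differently was tested as the log2 change in CGR8 minus that in NIH/3T3, in a model of all 30 libraries. The test cannot tell the cell line apart from its medium. At 2 h the difference was negative and called for 7 of 10 members, beside 2.02% of the 17549 genes tested either way, and the median of the 10 members was -1.07 against 0.07 for all genes. Klf6 differed by -1.80 (SE 0.14, edgeR adjusted p = 1.7e-09) and Klf10 by -1.71 (SE 0.17, edgeR adjusted p = 7.76e-08). Klf3 followed at -1.35 (edgeR adjusted p = 8.46e-06), Klf4 at -1.14 (edgeR adjusted p = 2.4e-05), Klf9 at -1.11 (edgeR adjusted p = 0.00281), Klf2 at -1.03 (edgeR adjusted p = 0.00421) and Klf5 at -0.74 (edgeR adjusted p = 0.00288). The Klf2 call was lost with the compared groups only (edgeR adjusted p = 0.0888, the highest over the alternatives, with 2.13e-06 the lowest). Klf4, Klf5 and Klf9 are those that rose in one line and fell in the other. Klf7, Klf11 and Klf13 did not pass, at 0.16, 0.28 and -0.66 (95% intervals -0.53 to 0.85, -0.09 to 0.65 and -1.09 to -0.24). Without 2 h CGR8 replicate A, Klf13 also passed at -0.89 (edgeR adjusted p = 0.0125, the lowest over the alternatives, with 0.303 the highest).

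**Figure D4:**
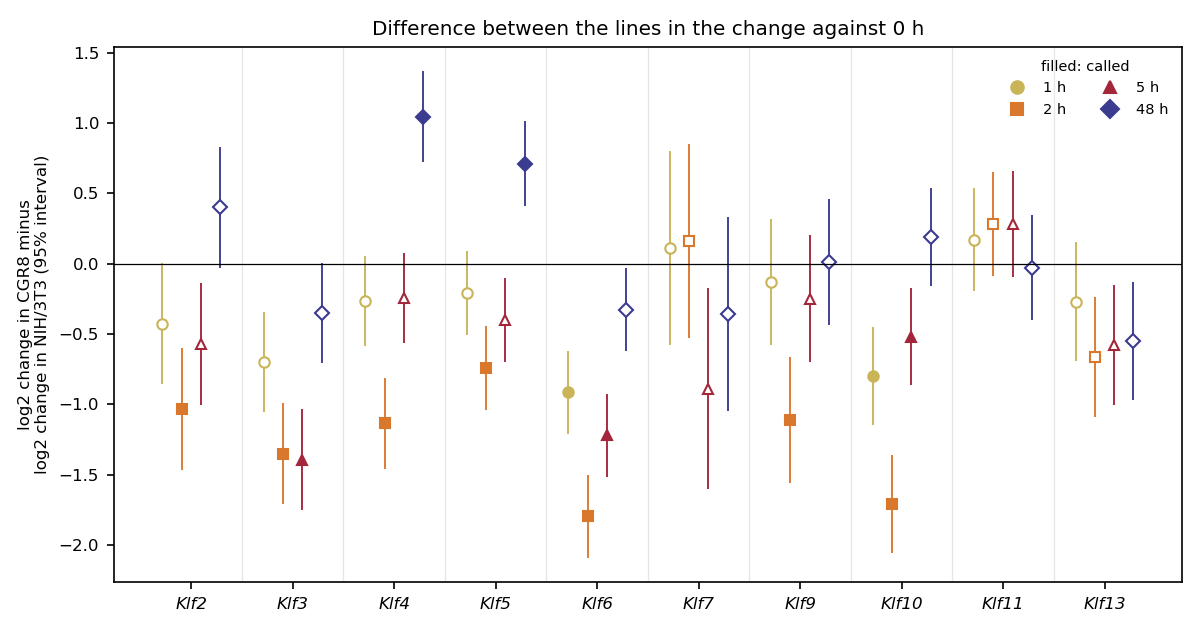
Log2 change against 0 h in CGR8 minus that in NIH/3T3 (y axis) for each member at 1, 2, 5 and 48 h, with 95% intervals and filled symbols for members called by edgeR. At 2 h, 7 members were called below 0, and at 48 h Klf4 and Klf5 were called above 0.

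At 1 h, Klf6 (-0.91, edgeR adjusted p = 0.00134) and Klf10 (-0.80, edgeR adjusted p = 0.0401) differed, 2 of 10 members beside 0.16% of all genes. The Klf10 call at 1 h was lost with library size alone, with the compared groups only, without any one 0 h library of either line, without 1 h replicate A or B of NIH/3T3 and without 1 h replicate A or B of CGR8 (edgeR adjusted p between 0.000265 and 0.383 over the alternatives). Without 1 h NIH/3T3 replicate C, Klf3 was called too, at -0.91 (edgeR adjusted p = 7.05e-05, and up to 0.813 over the alternatives).

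At 5 h, Klf3 (-1.39, edgeR adjusted p = 3.08e-06), Klf6 (-1.22, edgeR adjusted p = 1.38e-06) and Klf10 (-0.52, edgeR adjusted p = 0.04) differed, 3 of 10 members beside 13.3% of all genes. The median difference of all genes tested was 0.13 at that time, and library size alone as the scaling moved it by -0.19. The share of positive differences among all called genes was 61.6%, against 31.5% with library size alone. The direction of the 10 members was the same under both scalings. The count of members was 6 without 5 h CGR8 replicate A or B, where Klf2, Klf5 and Klf13 also passed, and the Klf10 call was lost without any one of 9 libraries, the 6 of NIH/3T3 at 0 and 5 h and the 3 of CGR8 at 0 h (edgeR adjusted p between 0.0051 and 0.115 over the alternatives).

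At 48 h both called differences were positive, while the median of the 10 members was -0.01 against -0.03 for all genes. Klf4 (1.05, edgeR adjusted p = 1.66e-05) and Klf5 (0.71, edgeR adjusted p = 0.000731) had the higher change in CGR8, 2 of 10 members beside 21.9% of all genes. Klf4 had by then risen in CGR8 and fallen in NIH/3T3, and Klf5 had fallen in NIH/3T3, while in CGR8 its log2 fold change of -0.23 did not pass the test (edgeR adjusted p = 0.125). Klf13 at -0.55 (edgeR adjusted p = 0.0547), Klf7 at -0.36, Klf3 at -0.35 and Klf6 at -0.33 had negative differences that did not pass. With the compared groups only, Klf3, Klf6 and Klf13 were called negative, 5 members in all. Klf13 was also called with library size alone and with a mean of at least 5 CPM.

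The genes whose courses lay closest to a member were found by the root mean square difference over the log2 fold changes at the 4 times, among genes of at least 5 CPM. The closest pair in NIH/3T3 was Klf7 and Ascc1, at 0.0103 over 9255 candidates, with Ascc1 at 0.10, 0.19, -0.06 and 0.83. In CGR8 it was Klf9 and Dhx57, at 0.0143 over 9252 candidates, with Dhx57 at 0.03, -0.47, -0.83 and 0.35. The rule named the closest pair of each line only. Given outside that rule, the genes nearest to Klf10 and Klf6 in NIH/3T3 were Tnfaip3 at 0.211 and Arrdc3 at 0.264. Those distances were the largest for any member in either line, and the changes of Klf10 and Klf6 themselves were large as well. At 48 h Arrdc3 was at -0.02 and Klf6 at 0.34. Each distance was a minimum picked over all candidates. The SE of each change was 0.24 for Klf7 in NIH/3T3 and 0.15 for Klf9 in CGR8, above the distances of the closest pairs. Whether genes with near courses share a cause was not tested.

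Among the other 7 genes of the family, 2 were tested in NIH/3T3 and 6 in CGR8. At 5 h both fell in NIH/3T3 and 5 of 6 fell in CGR8, with 0 higher in either line, beside 27.1% and 27.2% of all genes called lower. Klf16 fell from 67.4 ± 5.91 to 30.5 ± 2.48 CPM (SD, n = 3) in NIH/3T3, a log2 fold change of -1.11 (SE 0.13, edgeR adjusted p = 4.19e-06). Klf12, a CtBP-binding repressor, fell by 0.72 on the log2 scale in NIH/3T3 (edgeR adjusted p = 0.0494), where it had only 8 to 20 counts per library at 0 and 5 h. In CGR8, Klf12 fell from 15.8 ± 2.54 to 6.35 ± 2.32 CPM (SD, n = 3), a log2 fold change of -1.37 (SE 0.24, edgeR adjusted p = 0.000193). Klf17, the other gene that the size of its change singled out there, had 5 to 7 counts per library at 0 h and 0 to 1 at 5 h, too few for a fold change. Klf8 had 0 counts in every NIH/3T3 library at 0 and 5 h and was at 80.2 ± 0.506 CPM (SD, n = 3) in CGR8 at 0 h, from which it fell to 41.3 ± 13.0 at 5 h.

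Of the 9 SP genes, the sister branch that binds the same GC boxes, 4 were tested in NIH/3T3 and 6 in CGR8. At 5 h, 1 was higher and 1 lower in NIH/3T3, where Sp3 rose by 0.81 on the log2 scale (SE 0.11, edgeR adjusted p = 2.5e-05) and Sp2 fell by 0.63 (SE 0.14, edgeR adjusted p = 0.00126). In CGR8, 1 was higher and 4 were lower, with Sp5, a Wnt target, at a log2 fold change of -1.23 (SE 0.17, edgeR adjusted p = 2.28e-05) and Sp8 at 1.14 (SE 0.29, edgeR adjusted p = 0.00398). The shares of all genes called higher and lower at 5 h were 24% and 27.1% in NIH/3T3 and 24.9% and 27.2% in CGR8.

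Of 24 signal components known to act on KLF genes (the Mapk7 and Mef2 branch that induces Klf2 and Klf4, serum response factor and its partners, TGF-beta receptors and Smads, the LIF receptor branch, the glucocorticoid receptor, Foxo1 and p53), all were tested in NIH/3T3 and 23 in CGR8. At 5 h, 4 were higher and 12 lower in NIH/3T3, and 0 were higher and 17 lower in CGR8, beside 24% and 27.1%, and 24.9% and 27.2%, of all genes. The list's median log2 fold change was -0.24 in NIH/3T3 and -0.72 in CGR8, beside -0.01 in both for all genes. In NIH/3T3 the largest called changes were those of Mapk7, at -0.99 (SE 0.12, edgeR adjusted p = 6.88e-06), and Elk1, a serum response factor partner, at -0.92 (SE 0.13, edgeR adjusted p = 3.85e-05). In CGR8 they were those of Smad3, which carries TGF-beta signals, at -1.74 (SE 0.15, edgeR adjusted p = 5.16e-07), and Mrtfb, another serum response factor partner, at -1.64 (SE 0.18, edgeR adjusted p = 4.03e-06).

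Of 17 cofactors and ubiquitin ligases of KLF proteins, 2 were higher and 5 lower at 5 h in NIH/3T3, and 2 were higher and 8 lower in CGR8, with median log2 fold changes of 0.04 and -0.01. Of all genes, 24% were higher and 27.1% lower in NIH/3T3, and 24.9% and 27.2% in CGR8. Fbxo32, a ubiquitin ligase of muscle atrophy, fell by 1.14 on the log2 scale in NIH/3T3 (SE 0.15, edgeR adjusted p = 1.19e-05). It fell by 1.79 in CGR8 (SE 0.38, edgeR adjusted p = 0.00102), from 27 to 39 counts per library to 7 to 9. Sin3a, the corepressor of Klf9, Klf10, Klf11 and Klf13, fell by 0.61 in NIH/3T3 (SE 0.097, edgeR adjusted p = 8.25e-05), and the coactivator Crebbp fell by 1.00 in CGR8 (SE 0.18, edgeR adjusted p = 0.000345).

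All 10 partners of Klf2, Klf4 and Klf5 in the naive network were tested in CGR8, where 3 were higher and 6 lower at 5 h, beside 24.9% and 27.2% of all genes. Pou5f1 and Nanog were among the 3 that rose, at log2 fold changes of 0.74 and 0.62, named here after their values were seen. Tfcp2l1, a LIF-responsive network member, had the largest fall, at -1.25 (SE 0.19, edgeR adjusted p = 7.05e-05), and Esrrb followed at -0.999 (SE 0.14, edgeR adjusted p = 2.54e-05). Of the 2 partners tested in NIH/3T3, Tbx3 fell by 0.45 at 5 h (SE 0.13, edgeR adjusted p = 0.00926).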

How the data were processed

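RNA from 30 libraries was sequenced after column purification and a stranded mRNA ligation kit, per the labels' protocols. The authors deposited raw counts per gene, 1 column per library, and all 30 columns were used. STAR, DESeq2 and the build GRCm39 are named without roles, per the submitters' processing notes. The counting tool, its use of strand and the annotation release are not given in the sources used here. Symbols were matched through GENCODE M21 by Ensembl identifier without its version (90.7% of rows), which also gave exon lengths and overlapping genes, while promoters came from RefSeq.

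Counts were fitted in R 4.3.3 with edgeR 4.0.16 (filterByExpr with a minimum count of 10 and total of 15, TMM factors, quasi-likelihood F test), 15 libraries of a line per model, or all 30 for differences between lines. Benjamini-Hochberg adjustment of the p-values covered every gene tested, with calls under 0.05, and the 10 members' rows are printed. Intervals are at 95%. Code was tested on simulated counts. Depth was 18.2 to 30.5 M counts per library, and low counts are the least precise.

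The alternatives were RLE factors, library size alone, no filter, a mean of at least 5 CPM, the compared groups only, a replicate block, DESeq2 1.42.0 and each library left out in turn. The members and the gene lists were chosen with earlier results of these data known, so the lists give no independent support. By rule every member is described, as are the closest gene in each line and, from each list, the 2 genes with the largest called change at 5 h in each line.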

Additional observations from a re-analysis of the deposited data

Results flagged for a closer look

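CGR8 and NIH/3T3 responded differently relative to 0 h, by the test of the difference itself in the model of all 30 libraries, for 14 member results. Values are the log2 change in CGR8 minus that in NIH/3T3. At 1 h Klf6 differed by -0.91 and Klf10 by -0.80. At 2 h the differences were -1.80 for Klf6, -1.71 for Klf10, -1.35 for Klf3, -1.14 for Klf4, -1.11 for Klf9, -1.03 for Klf2 and -0.74 for Klf5. At 5 h they were -1.39 for Klf3, -1.22 for Klf6 and -0.52 for Klf10. At 48 h they were 1.05 for Klf4 and 0.71 for Klf5. The Klf10 calls at 1 h and 5 h were lost under 12 and 9 of the alternatives. In time order, 2, 7, 3 and 2 of 10 members were called, beside 0.16%, 2.02%, 13.3% and 21.9% of all genes tested. These comparisons share the 0 h libraries of both lines and cannot tell the cell line apart from its medium. Groups of 3 libraries are too small for a check of single libraries as outliers.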

How the results depend on the processing

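Of 190 results for single members, 100 were called, 74 of these under every alternative and 26 not under at least 1, while 28 others were called under at least 1, and 0 called results changed sign. With the letter as a replicate block, 186 of the 190 results, called or not, stayed on the same side of the threshold. That block lost 3 calls, Klf4 in NIH/3T3 from 1 to 2 h (edgeR adjusted p = 0.054), Klf9 in CGR8 at 2 h (0.0525) and Klf5 in CGR8 from 1 to 2 h (0.0593). It gained 1, Klf2 in the line difference at 5 h (edgeR adjusted p = 0.0295), and NIH/3T3 at 2 h had 7 called members. Deviations of same-letter libraries correlated at -0.30 to 0.33 in NIH/3T3 and -0.58 to 0.42 in CGR8. Those of different-letter libraries correlated at -0.39 to 0.37 and -0.54 to 0.66. No pairing by letter was thus seen, which does not exclude it. Fits of the compared groups only gave 1 member in place of 6 for NIH/3T3 from 1 to 2 h, 2 in place of 1 for CGR8 at 1 h, 0 in place of 4 for CGR8 from 1 to 2 h, 1 in place of 3 for CGR8 from 2 to 5 h, 1 in place of 2 for the line difference at 1 h and 5 in place of 2 at 48 h. DESeq2 gave 2 members for CGR8 at 1 h, and library size alone gave 1 for the line difference at 1 h. For the line difference at 5 h, RLE factors, library size alone, no filter and a mean of at least 5 CPM each gave 6 members in place of 3, the compared groups only gave 5 and DESeq2 gave 7. With 1 library left out, the members called ranged from 2 to 4 for NIH/3T3 at 1 h, 5 to 7 at 48 h and 3 to 7 from 1 to 2 h. They were 0 throughout for CGR8 at 1 h and ranged from 1 to 5 from 1 to 2 h there, and from 1 to 3 for the line difference at 1 h and 2 to 6 at 5 h. Among all genes, NIH/3T3 at 1 h had 102 calls, 272 with no filter, 265 by DESeq2 and 27 with the compared groups only. CGR8 at 1 h had 43, 202, 132 and 65. The compared groups only gave 965 in place of 3174 for CGR8 at 2 h, 60 in place of 2419 for NIH/3T3 from 1 to 2 h, 602 in place of 3051 for CGR8 from 2 to 5 h, 182 in place of 355 for the line difference at 2 h and 15 in place of 28 at 1 h, which was 44 with no filter. CGR8 from 1 to 2 h had 1050, 2443 with no filter, 1817 at 5 CPM, 337 with the block, 17 with the compared groups only and 2541 by DESeq2. The lines at 0 h had 13883, and 8601 at 5 CPM, where fewer genes were tested. With 1 library left out, the count of all genes called ranged from 52 to 475 for NIH/3T3 at 1 h, 3050 to 5599 at 2 h (4878 with all), 511 to 6295 from 1 to 2 h and 2064 to 3477 from 2 to 5 h (3220 with all). For CGR8 it ranged from 15 to 26 at 1 h, 1062 to 3924 at 2 h, 26 to 3340 from 1 to 2 h and 1738 to 3709 from 2 to 5 h. Library size alone moved the median of all genes by -0.10 for CGR8 at 5 h. For the other changes the cause was not tested. Depth limits Klf7 in CGR8 most among the members, at 5.50 CPM in its lowest library.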

Other observations

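The 3′ untranslated regions of the members, from GENCODE M21, were searched for the AU-rich pentamer ATTTA and the nonamer TTATTTATT, which mark many short-lived mRNAs. Klf7 held 18 pentamers in 6266 bases, against a median of 11 among genes of similar 3′ UTR length, and Klf13 held 3 in 5157 bases against a median of 9. Klf10 held 4 in 1492 bases against 2, and Klf6 held 7 in 3111 bases against 5. Among genes of similar length, 79.8% held fewer than Klf7, 66.9% fewer than Klf10, 61.0% fewer than Klf6 and 4.27% fewer than Klf13. Of the 10 members, 6 had more than the median for their length. Klf2 and Klf4 held 1 each against a median of 1, and Klf11 held 4 against 4. The nonamer was found in Klf5 alone of the members, and 6.98% of 21020 genes with a 3′ UTR held it. Among genes of similar 3′ UTR length the share was 9.05% for Klf5. For the other members it ran from 4.28% for Klf2 to 25% for Klf7.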
